A study of Mus musculus with 8 samples.

Results

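The 6 genes described here encode molecular chaperones of the heat shock protein families: Hspa1b, Hspa8, Hsph1, Dnajb1, Hspa5 and Hspd1. They were taken as a set by name, with earlier results of these data known. Every probe set annotated to 1 of them was read. This gave 7 of the 12422 probe sets of the Affymetrix MG_U74Av2 array, and 6 of its 8251 genes with a probe set of their own. None of the 7 was annotated to a second gene. RNA of whole mouse colon was hybridised, 1 array per pool of animals, in 4 groups of 2 pools. The groups were C57BL/6J Il10-null, C57BL/6J wild type, C3H/HeJBir Il10-null and C3H/HeJBir wild type. Il10-null stands for the targeted allele Il10tm1Cgn of the gene for interleukin 10, a cytokine that restrains inflammation, and no group received a treatment according to the labels. A pool combined 7 µg of RNA from each of 5 animals, or from each of 4 in both C3H/HeJBir wild-type pools and in C3H/HeJBir Il10-null sample 2. Only C57BL/6J wild type sample 2 is labelled with an age, 4 weeks, and no label states the sex.

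Chaperones bind unfolded protein and help it to fold, refold or be degraded. HSP70 proteins do so in cycles of ATP hydrolysis, which J-domain proteins start and nucleotide exchange factors end. When unfolded protein accumulates in the cytosol, the transcription factor Hsf1 binds heat shock elements, inverted repeats of the unit GAA, and raises the genes of the inducible chaperones, whereas unfolded protein in the endoplasmic reticulum acts through a separate response and its own promoter element. In the intestine, inducible HSP70 is best known as a protein of the epithelium that protects cells against injury.

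RefSeq promoter windows (mouse build GRCm38.p6, 250 bases before to 50 after the gene's start) were matched for 5 of the 6 genes. For each gene with a match to a searched element, 1 window that holds it is printed, to show where the letters lie. Capitals mark the element, sequences run 5′ to 3′ on the gene's strand, and positions count from the start site as 0. The windows lie at chr17:34959189-34959488 (minus strand) for Hspa1b, at chr5:149636266-149636565 (minus strand) for Hsph1, at chr1:55087883-55088182 (minus strand) for Hspd1 and at chr2:34771840-34772139 (plus strand) for Hspa5.
Hspa1b: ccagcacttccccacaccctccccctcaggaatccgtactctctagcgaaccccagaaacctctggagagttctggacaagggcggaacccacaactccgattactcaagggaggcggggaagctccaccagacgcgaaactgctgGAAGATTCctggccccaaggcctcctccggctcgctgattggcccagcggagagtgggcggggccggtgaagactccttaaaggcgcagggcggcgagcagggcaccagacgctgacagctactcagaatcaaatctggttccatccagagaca
Hsph1: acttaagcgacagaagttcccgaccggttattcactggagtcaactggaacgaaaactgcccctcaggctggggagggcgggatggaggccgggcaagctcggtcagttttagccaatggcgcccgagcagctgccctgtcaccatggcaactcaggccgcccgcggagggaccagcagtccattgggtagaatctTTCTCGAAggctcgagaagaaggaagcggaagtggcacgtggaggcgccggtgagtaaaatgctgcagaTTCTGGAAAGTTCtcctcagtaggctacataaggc
Hspd1: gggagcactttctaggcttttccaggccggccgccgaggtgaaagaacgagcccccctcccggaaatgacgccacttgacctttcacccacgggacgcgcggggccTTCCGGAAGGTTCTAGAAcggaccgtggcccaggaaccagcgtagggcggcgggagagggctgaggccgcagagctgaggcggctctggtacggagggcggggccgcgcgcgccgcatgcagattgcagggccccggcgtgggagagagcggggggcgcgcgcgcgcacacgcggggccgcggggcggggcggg
Hspa5: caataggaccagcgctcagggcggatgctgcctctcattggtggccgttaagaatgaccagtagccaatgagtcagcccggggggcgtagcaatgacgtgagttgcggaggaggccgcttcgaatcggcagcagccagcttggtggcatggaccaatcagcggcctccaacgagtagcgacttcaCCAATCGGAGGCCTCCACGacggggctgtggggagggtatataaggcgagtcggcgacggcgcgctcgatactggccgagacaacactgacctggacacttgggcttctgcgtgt
The pair of facing units GAANNTTC stood in the Hspa1b window from position -104 to -97, and 7.86% of 32851 RefSeq windows hold those letters. The other arrangement, TTCNNGAA, stood in the Hsph1 window from -54 to -47, and 8.52% of windows hold it. Runs of 3 alternating units (GAA and TTC in turn, each 2 bases from the next), which contain the 2-unit forms, stood after the start of Hsph1 from 15 to 27 and, overlapping each other, upstream of Hspd1 from -144 to -127. Such runs occur in 0.603% of windows. RefSeq gives Hsph1 a second start, with a window at chr5:149636287-149636586, from which the same Hsph1 elements lie at -33 to -26 and 36 to 48. The endoplasmic reticulum stress element, CCAAT followed by CCACG after 9 unspecified bases, stood in the Hspa5 window from -65 to -47 and occurs in 0.119% of windows. Both strands were searched. The 2 windows of Dnajb1 held none of these letters, nor did a second window of Hspd1. A match describes the letters only.

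All 8 arrays carried the epithelium of colon. The 11 absorptive colonocyte markers on the array were all tested and summed to between 41932 and 50251 intensity units per pool. The median intensity was 60.1 to 62.2 on the sample 1 arrays and 50.1 to 54.9 on the sample 2 arrays. The probe set of Il10 read 22.0 to 51.7 in Il10-null pools and 5.43 to 10.9 in wild-type pools, higher in the line that carries the targeted allele. Where this probe set lies relative to the altered part of the gene is not given, so it does not check the genotype labels. The pool that stood furthest from the others was sample 1 of C3H/HeJBir Il10-null, whose mean Spearman correlation with the other arrays was 0.915, against 0.931 to 0.945 for the other pools. Its 7 neutrophil markers, of which 2 passed the filter on low intensity, summed to 962, against 113 to 177 in the other 7 pools, and its 8 smooth muscle markers summed to 9693, against 11895 to 17316. No marker was listed at 0. The arrays were hybridised on 3 days according to the experiment files: the sample 1 Il10-null pools on 1 day, the sample 1 wild-type pools on another and all sample 2 pools on the third. The sample 2 pools are thus the ones that hold both genotypes on 1 day. In bulk tissue, fewer cells of a type and less RNA per cell cannot be told apart.

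Of the 7 probe sets, 6 passed the filter on low intensity, 1 for each gene. The seventh, a second probe set of Hspd1, read 6.38 to 27.8 over the 8 pools, below the minimum mean of 37.0, and is not discussed further. Among the 6, Hspa8 varied least between pools, with a highest value 1.46 times its lowest, and Hspa1b varied most, with a ratio of 3.08. The standard deviation of the log2 values over the 8 pools lay at the 21.6th percentile of all tested probe sets for Hspa8 and at the 87.1st percentile for Hspa1b.

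**Figure D1:**
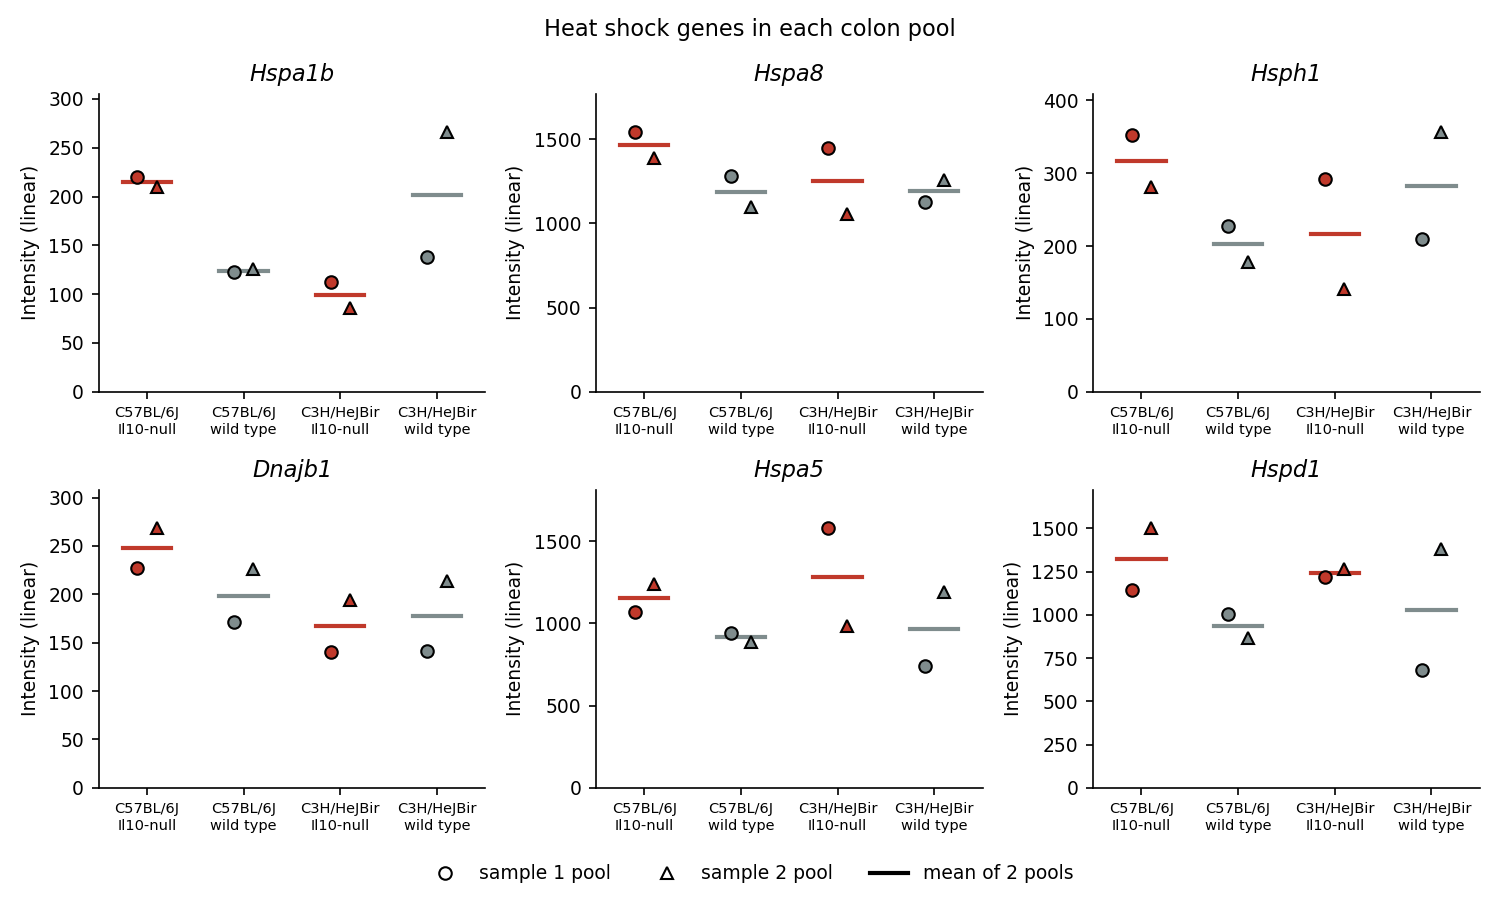
Deposited intensity (linear scale, vertical axis) of the 6 genes in each of the 8 pools, with the Il10-null group left of the wild-type group of each strain and a bar at the mean of each pair. The C57BL/6J Il10-null pools lie above the C57BL/6J wild-type pools for all 6 genes, and for Hspa1b the C3H/HeJBir pools are ordered the other way.

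In C57BL/6J colon, all 6 chaperone genes read higher in both Il10-null pools than in both wild-type pools, but none of these differences passed the test. The sizes ran from 0.30 on the log2 scale for Hspa8 to 0.74 for Hspa1b, with a median of 0.41, while the median over all 7453 tested probe sets was -0.01. Of all tested probe sets, 12.6% had both Il10-null pools above both wild-type pools, and 48.9% had a positive difference. Because the 6 genes were chosen with earlier results of these data known, these shares describe the set and do not test it. The count of 6 depended on the scaling of the arrays: it was 4 after quantile normalization, where the pools of Hspa8 and Dnajb1 overlapped, and 5 after scaling to a common median, where those of Dnajb1 did.

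Hspa1b encodes the stress-inducible HSP70 of the cytosol. Its intensity was 219.7 and 210.1 in C57BL/6J Il10-null pools, against 123 and 125 in C57BL/6J wild-type pools. The pools of each group lay close together and the groups did not overlap. The difference was 0.74 ± 0.31 (SE, n = 2 pools each) on the log2 scale, a 1.67-fold higher level in Il10-null, with a 95% interval of 0.02 to 1.46 (limma adjusted p = 1.00).

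Hspa8, the constitutively expressed HSP70 of the cytosol, read 1541 and 1391 in C57BL/6J Il10-null pools, against 1283 and 1096 in C57BL/6J wild-type pools. The nearest pools of these groups were closer to each other than the pools within either group. Hsph1, an HSP110 protein that serves as a nucleotide exchange factor for HSP70, read 353 and 281 in C57BL/6J Il10-null pools and 227 and 178 in C57BL/6J wild-type pools. Dnajb1, the J-domain partner of inducible HSP70, read 227 and 268 in C57BL/6J Il10-null pools and 171 and 226 in C57BL/6J wild-type pools. Its groups all but touched, and in all 4 groups of the study its sample 1 pool read lower than its sample 2 pool, by log2 differences of -0.23 to -0.56.

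Hspa5 encodes BiP, the HSP70 of the endoplasmic reticulum. It read 1071 and 1238 in C57BL/6J Il10-null pools, against 942 and 888 in C57BL/6J wild-type pools. Hspd1 encodes HSP60, the chaperonin of the mitochondrial matrix. It read 1141 and 1500.3 in C57BL/6J Il10-null pools, against 1002 and 866 in C57BL/6J wild-type pools. For both genes the Il10-null pools were the higher ones, and the Il10-null pools of Hspd1 differed from each other by a ratio of 1.31.

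On the log2 scale the differences were 0.62 ± 0.38 for Hsph1 (95% interval -0.26 to 1.502), 0.49 ± 0.34 for Hspd1 (-0.30 to 1.27), 0.33 ± 0.32 for Hspa5 (-0.40 to 1.06), 0.31 ± 0.29 for Dnajb1 (-0.36 to 0.98) and 0.30 ± 0.25 for Hspa8 (-0.26 to 0.87). Each interval includes 0. Single pools moved 3 of these values by over 1.5 times. The difference of Dnajb1 was 0.12 without the sample 1 wild-type pool, 0.50 without the sample 2 wild-type pool and 0.20 without the sample 2 Il10-null pool. Leaving out the sample 2 Il10-null pool gave 0.29 for Hspd1, and leaving out the sample 2 wild-type pool gave 0.19 for Hspa8. All 6 genes had a limma adjusted p of 1.00, and 0 of 7453 probe sets, a percentage of 0, passed an adjusted p of 0.05 in this comparison, with 118 (1.58%) under an unadjusted p of 0.05. Hspa1b was the 1 gene of the 6 among the latter.

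Within the sample 2 pools, which shared a hybridisation day, the Il10-null pool was higher by 0.70 for Hspa1b, 0.79 for Hspd1, 0.63 for Hsph1, 0.48 for Hspa5, 0.34 for Hspa8 and 0.24 for Dnajb1 (log2 differences of single pools). The signs follow from the separation of the groups given above, and only the sizes are new. With the day as a block, the Il10 effect averaged over strains rests on the sample 2 pools alone. The block value of a strain also draws on the pools of the other strain, so it is not a same-day difference within that strain. In C57BL/6J it was 0.41 for Hspa1b, 0.19 for Hsph1, 0.17 for Hspa8 and 0.07 for Hspa5. Each of these was more than 1.5 times smaller than without the block. For Hspd1 the block value was 0.40 and for Dnajb1 0.24. All 8 smooth muscle markers also read lower in C57BL/6J Il10-null, with a median log2 difference of -0.25 and sums of 11895 to 14821 in Il10-null pools against 15159 to 15908 in wild-type pools. Medians were also below 0 for the fibroblast (-0.27, 8 tested), macrophage (-0.05, 6 tested), adipocyte (-0.27, 3 tested) and skeletal muscle (-0.39, 2 tested) markers. The T cell value, -0.34, was that of 1 tested marker. The remaining cell type marker lists had medians above 0. The part of these markers in the result was not tested.

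**Figure D2:**
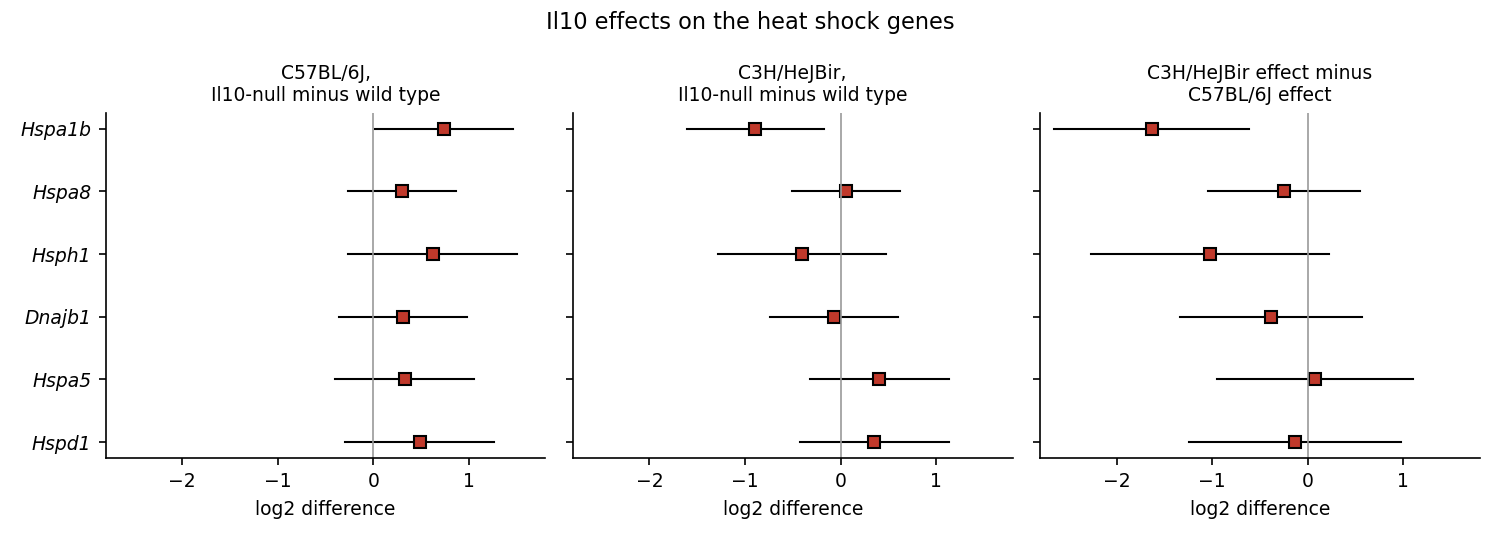
Log2 difference of Il10-null minus wild type for each gene in C57BL/6J (left) and C3H/HeJBir (middle), and the C3H/HeJBir difference minus the C57BL/6J difference (right). Squares are limma estimates from 2 pools per group and lines are 95% intervals. The interval of Hspa1b lies above 0 on the left and below 0 in the middle and on the right.

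In C3H/HeJBir colon the 6 genes did not share a direction. Hspa1b read lower in both Il10-null pools than in both wild-type pools, the other 5 genes overlapped between genotypes, and no difference passed the test. Of all tested probe sets, 12.0% had both C3H/HeJBir Il10-null pools below both wild-type pools. The median difference of the 6 genes was -0.01, as it was over all tested probe sets, with 3 genes above 0 and 3 below.

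Hspa1b read 112 and 86.2 in C3H/HeJBir Il10-null pools, against 138 and 266 in C3H/HeJBir wild-type pools. The wild-type pools were 1.93-fold apart, and the sample 2 wild-type pool was the highest of all 8. The log2 difference was -0.89 ± 0.31 (SE, n = 2 pools each; 95% interval -1.61 to -0.17; limma adjusted p = 0.999). It was -0.27 between the sample 1 pools and -1.51 between the sample 2 pools. Without the sample 2 wild-type pool it was -0.44, and without the sample 1 wild-type pool -1.34. With the day as a block it was -1.22.

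Hsph1 read 292 and 142 in C3H/HeJBir Il10-null pools and 209 and 356 in C3H/HeJBir wild-type pools. Both its lowest and its highest values of the study were among these 4 pools, so the genotypes overlapped widely, with a log2 difference of -0.40 ± 0.38 (95% interval -1.28 to 0.48). Hspa8 read 1448 and 1056 in C3H/HeJBir Il10-null pools and 1129 and 1257 in C3H/HeJBir wild-type pools, a log2 difference of 0.05 ± 0.25 (-0.51 to 0.62). Dnajb1 read 139.9 and 195 in C3H/HeJBir Il10-null pools and 141 and 214 in C3H/HeJBir wild-type pools, a log2 difference of -0.07 ± 0.29 (-0.74 to 0.60). In each of these 3 genes the spread within a genotype exceeded the difference between genotypes.

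Hspa5 read 1578 and 987 in C3H/HeJBir Il10-null pools, against 742 and 1189 in C3H/HeJBir wild-type pools, a log2 difference of 0.41 ± 0.32 (95% interval -0.32 to 1.13). The Hspa5 difference was 0.07 without either of the sample 1 pools, 0.74 without either of the sample 2 pools and 0.14 with the day as a block. Hspd1 read 1219 and 1266 in C3H/HeJBir Il10-null pools, against 682 and 1379 in C3H/HeJBir wild-type pools, a log2 difference of 0.35 ± 0.34 (-0.43 to 1.13). For both genes the sample 1 wild-type pool was the lowest of the 8 pools, while the sample 2 wild-type pool lay above the sample 2 Il10-null pool. In this comparison 1 of 7453 probe sets (0.0134%) passed an adjusted p of 0.05 and 211 (2.83%) an unadjusted p of 0.05, which Hspa1b alone of the 6 did.

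The sample number split the C3H/HeJBir pools for 4 genes. Between the sample 1 pools, the Il10-null pool was higher by 1.08 for Hspa5, 0.83 for Hspd1, 0.46 for Hsph1 and 0.36 for Hspa8 on the log2 scale. Between the sample 2 pools the differences had the opposite sign, -0.27 for Hspa5, -0.12 for Hspd1, -1.27 for Hsph1 and -0.25 for Hspa8. All 6 genes read lower in the sample 1 than in the sample 2 C3H/HeJBir wild-type pool, by log2 differences of -0.15 for Hspa8 to -1.005 for Hspd1, while the median over all tested probe sets was 0.09 with an SD of 0.53. The sample 1 Il10-null pool is the one with the neutrophil markers at 962. Without it, the log2 difference of C3H/HeJBir Il10-null minus wild type was -1.06 for Hspa1b, -0.90 for Hsph1, -0.17 for Hspa8, 0.15 for Dnajb1, 0.07 for Hspa5 and 0.38 for Hspd1.

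**Figure D3:**
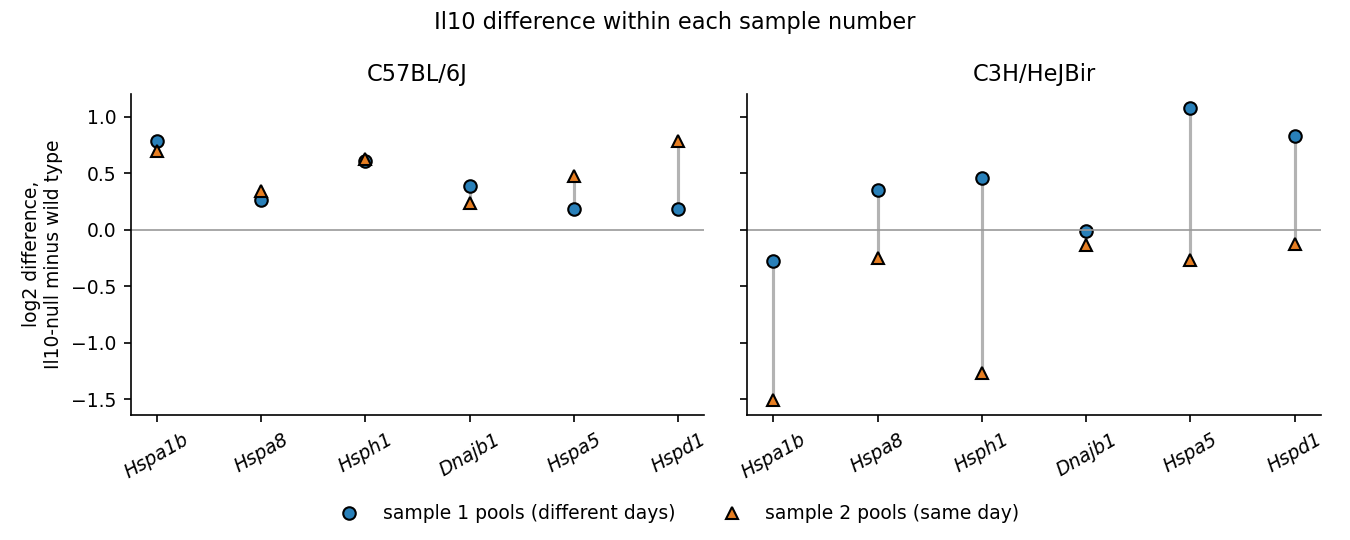
Log2 difference of Il10-null minus wild type for each gene between the sample 1 pools, hybridised on different days, and between the sample 2 pools, hybridised on the same day, in each strain. In C57BL/6J both points are above 0 for every gene, and in C3H/HeJBir the points of Hspa5, Hspd1, Hsph1 and Hspa8 fall on opposite sides of 0.

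The difference between the strains in the Il10 comparison was tested directly. For Hspa1b, the C3H/HeJBir difference minus the C57BL/6J difference was -1.63 ± 0.44 on the log2 scale (95% interval -2.65 to -0.61; limma adjusted p = 1.00). For Hsph1 it was -1.02 ± 0.54 (-2.27 to 0.23; limma adjusted p = 1.00). The other genes gave -0.38 ± 0.41 for Dnajb1, -0.25 ± 0.35 for Hspa8, -0.13 ± 0.48 for Hspd1 and 0.08 ± 0.45 for Hspa5. Over the alternatives, Hsph1 lay between -1.52 and -0.53, Dnajb1 between -0.66 and -0.10 and Hspa8 between -0.47 and -0.02. No probe set, a percentage of 0, passed an adjusted p of 0.05 in this comparison by limma, and 112 (1.50%) had an unadjusted p under 0.05. Hspa1b was among them, and its estimate lay between -2.08 and -1.19 over the 19 alternatives computed. Several of these cannot move it, such as a block on the sample number or on the day, which left it at -1.63. It was -2.08 without the sample 1 C3H/HeJBir wild-type pool and -1.19 without the sample 2 C3H/HeJBir wild-type pool.

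Hspa1a, the neighbouring gene of Hspa1b on chromosome 17, encodes a nearly identical HSP70 and was read by another probe set. It read 240.3 and 182 in C57BL/6J Il10-null pools, against 123 and 125 in C57BL/6J wild-type pools, and 108 and 87.3 in C3H/HeJBir Il10-null pools, against 118 and 185 in C3H/HeJBir wild-type pools. The genotypes were apart in both strains, in opposite directions, as for Hspa1b. The log2 differences were 0.70 ± 0.28 in C57BL/6J (adjusted p = 1.00) and -0.55 ± 0.28 in C3H/HeJBir (adjusted p = 0.999), and the C3H/HeJBir difference minus the C57BL/6J difference was -1.26 ± 0.39 (limma adjusted p = 1.00). Because the transcripts are so alike, how far each probe set reads the other gene is uncertain, and the pair is not independent evidence.

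**Figure D4:**
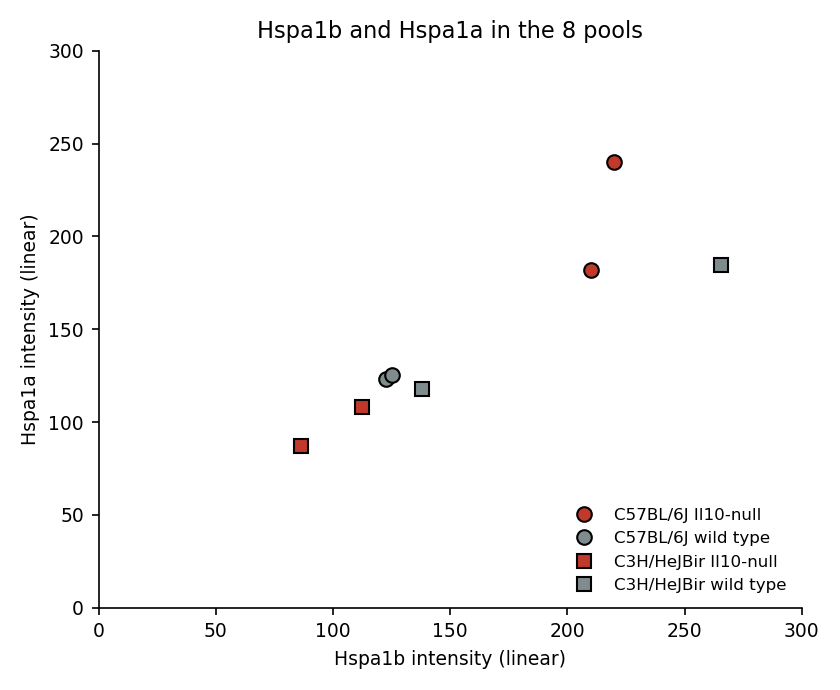
Intensity of Hspa1a (vertical axis, linear) against that of Hspa1b (horizontal axis, linear) in the 8 pools, coloured by genotype and shaped by strain. The C57BL/6J Il10-null pools and the sample 2 C3H/HeJBir wild-type pool lie at the upper right, and the C3H/HeJBir Il10-null pools at the lower left.

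Between strains, no gene of the 6 passed the test in either genotype. In wild type, C3H/HeJBir minus C57BL/6J gave log2 differences of 0.59 ± 0.31 for Hspa1b and 0.42 ± 0.38 for Hsph1, and the other 4 lay between -0.17 for Dnajb1 and 0.06 for Hspd1 (limma adjusted p = 1.00 each). Hspa1b was the 1 gene whose C3H/HeJBir wild-type pools both lay above the C57BL/6J wild-type pools, as 14.0% of tested probe sets did, and its pools overlapped after scaling to a common median. Without the sample 2 C3H/HeJBir wild-type pool its difference was 0.14 and that of Hsph1 was 0.05. Without the sample 1 C3H/HeJBir wild-type pool they were 1.04 for Hspa1b and 0.79 for Hsph1, and without the sample 2 C57BL/6J wild-type pool Hsph1 gave 0.25. In this comparison 30 probe sets (0.403%) passed the adjusted threshold and 423 (5.68%) the unadjusted one, none of them a probe set of the 6 genes.

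In Il10-null, Hspa1b gave -1.04 ± 0.31 on the log2 scale for C3H/HeJBir minus C57BL/6J, a level 0.485 times that of C57BL/6J Il10-null (95% interval -1.76 to -0.32; limma adjusted p = 0.535). Both its C3H/HeJBir pools lay below both C57BL/6J pools, by -0.90 for sample 1 and -1.18 for sample 2, and the pools of each sample number shared a hybridisation day. Dnajb1 was ordered the same way, with a difference of -0.55 ± 0.29 (-1.22 to 0.12). Of all tested probe sets, 15.3% had both C3H/HeJBir Il10-null pools below both C57BL/6J Il10-null pools. After scaling to a common median, Hspa8 and Hsph1 were separated in this direction as well. Hsph1 gave -0.60 ± 0.38, Hspa8 -0.24 ± 0.25, Hspd1 -0.07 ± 0.34 and Hspa5 0.12 ± 0.32. Without the sample 1 C3H/HeJBir Il10-null pool the difference was -1.09 for Hsph1, -0.47 for Hspa8 and -0.33 for Dnajb1. Without the sample 2 C3H/HeJBir Il10-null pool it was -0.10 for Hsph1, -0.016 for Hspa8 and -0.77 for Dnajb1. The test called 22 probe sets (0.295%) by adjusted p and 385 (5.17%) by unadjusted p, and of the 6 genes Hspa1b was in the second count and none in the first.

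Averaged over both strains, the Il10 differences lay between -0.07 for Hspa1b, whose strains had opposite signs, and 0.42 for Hspd1 (limma adjusted p = 1.00 each). In that comparison 0 probe sets, a percentage of 0, passed the adjusted threshold and 230 (3.09%) the unadjusted one, none of them a probe set of the 6 genes. Averaged over both genotypes, the strain differences lay between -0.36 ± 0.21 for Dnajb1 (limma adjusted p = 0.809) and 0.08 ± 0.22 for Hspa5, in a comparison that called 83 probe sets (1.11%) by adjusted p and 628 (8.43%) by unadjusted p, again none of the 6 genes.

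Ordered by group mean, Hspa1b was highest in C57BL/6J Il10-null, followed by C3H/HeJBir wild type, C57BL/6J wild type and C3H/HeJBir Il10-null. The pools of C3H/HeJBir wild type spanned those of C57BL/6J Il10-null, so the first neighbours did not differ beyond their spread, while no pools overlapped between the other neighbours. Dnajb1 was highest in C57BL/6J Il10-null, then C57BL/6J wild type, C3H/HeJBir wild type and C3H/HeJBir Il10-null, and neighbours among the last 3 overlapped. Hsph1 followed the order C57BL/6J Il10-null, C3H/HeJBir wild type, C3H/HeJBir Il10-null and C57BL/6J wild type, with overlap between every pair of neighbours. Hspa8 and Hspd1 followed the order C57BL/6J Il10-null, C3H/HeJBir Il10-null, C3H/HeJBir wild type and C57BL/6J wild type, and Hspa5 the same order with its Il10-null groups exchanged. In these 3 genes the pools of every pair of neighbours overlapped.

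Among themselves the genes did not form 1 pattern. Of the 15 pairs, the most alike over the 8 pools on the log2 scale were Hspa8 with Hsph1 (Pearson r = 0.85, Spearman rho = 0.76), Hspa1b with Hsph1 (0.82 and 0.69) and Hspa5 with Hspd1 (0.78 and 0.81). Without the 2 pools farthest from the median of the first gene, r was 0.70, 0.63 and 0.91 over the remaining 6 pools. Over all pairs of tested probe sets the median r was 0.01, and 1.81% of pairs exceeded 0.8. The points share their arrays, pools and groups, and these coefficients are descriptions.

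The 3 genes most alike to each member, by Pearson r of log2 intensity over the 8 arrays among 6722 other probe sets with 1 gene, were as follows. For Hspa1b they were Hspa1a (0.93), Cdx1, an intestinal transcription factor (0.91), and Xpo7, a nuclear transport receptor (0.89). For Hspa8 they were Vars, a tRNA synthetase (0.96), Abcb9 (0.93) and Lrba (0.92). Hspa5 was closest to Hif1a, a transcription factor of the hypoxia response, Nup107, a nuclear pore protein, and Prr13 (each 0.96). Dnajb1 was closest to Wdr26 (0.99), Rap1gds1 (0.96) and Cmip (0.96). Hsph1 was closest to the immunoglobulin gene segment Igkv10-96 (0.94), Elof1 (0.91) and Kat2a (0.89), and Hspd1 to Cd164 (0.97), Hnrnpa2b1 (0.96) and Pno1 (0.94). Apart from Hspa1a, none of the 18 is a chaperone.

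Other chaperones, stress regulators and immediate early genes were read through 11 lists of 126 genes: the array held 107, and 93 passed the filter. The immediate early genes, 16 of the 93, are not chaperones. None of the 93 passed the adjusted threshold in any of the 7 comparisons by limma. In C57BL/6J, 2 of them (2.15%) had an unadjusted p under 0.05, against 1.58% of all tested probe sets, and in C3H/HeJBir 3 (3.23%), against 2.83%. For the difference of the Il10 effects the count was 4 (4.30%, against 1.50%), for the strain difference in Il10-null 7 (7.53%, against 5.17%) and in wild type 4 (4.30%, against 5.68%). For the average Il10 effect it was 3 (3.23%, against 3.09%) and for the average strain difference 9 (9.68%, against 8.43%). Immediate early genes made up 2 of the 3 in C3H/HeJBir and all 3 for the average Il10 effect. The median log2 difference of the 93 genes was 0.01 in C57BL/6J and 0.08 in C3H/HeJBir.

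The other HSP70 and HSP110 genes came closest to the 6 in C57BL/6J, with a median of 0.30 over 5 tested genes and 4 of them above 0, and a median of 0.04 in C3H/HeJBir. Hspa1a led this list. The HSP90 family and its co-chaperones had medians of 0.22 in C57BL/6J and of -0.04 in C3H/HeJBir over 9 tested genes. Fkbp5, an HSP90 co-chaperone that glucocorticoids induce, read 758 and 502 in C57BL/6J Il10-null pools, against 491 and 330.1 in C57BL/6J wild-type pools, and 302 and 288 in C3H/HeJBir Il10-null pools, against 359 and 486 in C3H/HeJBir wild-type pools. Its genotypes were apart in both strains and in opposite directions, with log2 differences of 0.60 ± 0.31 in C57BL/6J (adjusted p = 1.00) and -0.49 ± 0.31 in C3H/HeJBir (adjusted p = 0.999). Hsp90aa1, the inducible cytosolic HSP90, gave -0.11 ± 0.35 in C57BL/6J, a difference smaller than its standard error, and 0.79 ± 0.35 in C3H/HeJBir.

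The 14 tested heat-inducible genes regulated by Hsf1 had a median of 0.17 in C57BL/6J (10 above 0) and -0.05 in C3H/HeJBir (6 above 0). Bag3, an Hsf1 target that links HSP70 to autophagy, gave 0.28 ± 0.23 in C57BL/6J and -0.30 ± 0.23 in C3H/HeJBir. The BAG and nucleotide exchange list had medians of -0.07 in C57BL/6J and of -0.17 in C3H/HeJBir over 6 genes, and the 3 small heat shock proteins -0.25 in C57BL/6J and -0.18 in C3H/HeJBir. The 16 other J-domain genes had medians of -0.08 in C57BL/6J and of 0.08 in C3H/HeJBir. The 5 heat shock and stress regulators had medians of -0.02 in C57BL/6J and of -0.26 in C3H/HeJBir.

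No gene of the organelle chaperone lists or of the cytosolic chaperonin list passed the test. The 18 endoplasmic reticulum chaperones and stress genes had medians of 0.12 in C57BL/6J (12 above 0) and 0.10 in C3H/HeJBir (15 above 0). Manf, a secreted protein of the endoplasmic reticulum stress response, gave the largest difference of that list in C57BL/6J, 0.65 ± 0.31, and 0.28 ± 0.31 in C3H/HeJBir. Hsp90b1, the HSP90 of the endoplasmic reticulum, gave 0.22 in C57BL/6J and 0.33 in C3H/HeJBir. The mitochondrial chaperones and proteases had medians of 0.00 in C57BL/6J and of 0.09 in C3H/HeJBir over 7 genes, and the cytosolic chaperonin CCT with prefoldin -0.02 in C57BL/6J and -0.06 in C3H/HeJBir over 12.

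Immediate early genes, which respond within minutes to many stimuli, were listed to show how the pools differ in them. Of 16 tested, 6 had both C57BL/6J Il10-null pools above both C57BL/6J wild-type pools and 0 below, with a median log2 difference of 0.11. Over all tested probe sets the shares in C57BL/6J were 12.6% above and 13.6% below. In C3H/HeJBir 3 were above and 1 below, with a median of 0.18, where the shares over all tested probe sets were 11.3% above and 12.0% below. The summed intensity of all 18 such genes on the array was 10427 and 10562 in C57BL/6J Il10-null pools, against 9199 and 9660 in C57BL/6J wild-type pools. The sum was thus higher in C57BL/6J Il10-null, as the 6 chaperone genes were. In C3H/HeJBir the sums overlapped, with 10212 and 8030 in Il10-null pools against 9078 and 8991 in wild-type pools. Of the 16 tested immediate early genes, 10 had a difference above 0 in C57BL/6J and 6 below 0. Their part in the result was not tested. The medians of the 12 cell type marker lists lay between -0.39 and 0.43 in C57BL/6J and between -0.40 and 1.04 in C3H/HeJBir. The -0.39 was that of the 2 tested skeletal muscle markers. The 1.04 was that of the 2 tested neutrophil markers, which were high in the sample 1 Il10-null pool. The 0.43 was that of the 7 exocrine pancreas markers, about the size of the median of the 6 chaperone genes. The pancreas markers summed to 3389 and 1473 in C57BL/6J Il10-null pools, against 2670 and 1527 in C57BL/6J wild-type pools, and to 4615 and 1294 in C3H/HeJBir Il10-null pools, against 2411 and 2435 in C3H/HeJBir wild-type pools. The genotypes overlapped in these sums in both strains, and the highest sums were those of the sample 1 Il10-null pools. The part of these markers in the result was not tested.

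**Figure D5:**
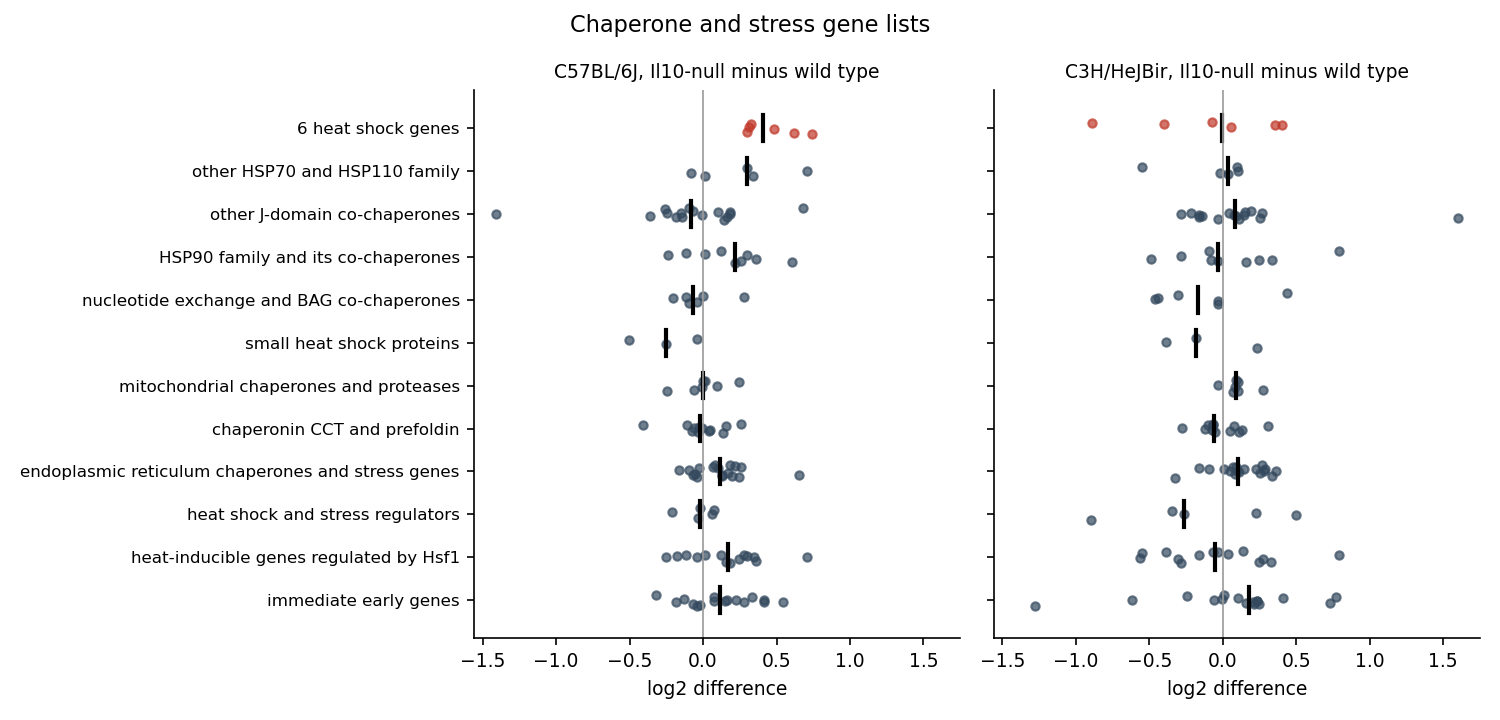
Log2 difference of Il10-null minus wild type for the tested genes (points) of each chaperone and stress list, with a bar at the median, in C57BL/6J (left) and C3H/HeJBir (right). The 6 genes have the largest median in C57BL/6J, 0.41, and no list holds a gene that passed the test in either strain.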

How the data were processed

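RNA of pooled whole colon was measured on Affymetrix MG_U74Av2 arrays, 1 per pool. The authors deposited 1 intensity value per probe set on a linear scale, while the summary algorithm and the scaling target are not stated in the sources used here. Trimmed means of the arrays differed by a ratio of 1.01, so the deposited scaling was kept. The experiment files, per the file headers, gave the hybridisation days. Of the probe sets, 10833 carried 1 gene symbol in the platform annotation, 396 several and 1193 none, and 10817 were matched to RefSeq (GRCm38.p6).

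Intensities were analysed as log2(value + 11.07), the 20th percentile of all values. This understates the fold change of low genes. The test took the 7453 probe sets whose mean reached 37.0, the 40th percentile. A gene was read by its probe set with the highest mean. Group means were fitted over all 8 pools with limma 3.58.1 in R 4.3.3 (lmFit, eBayes, 4 residual and 4.23 prior degrees of freedom), two-sided, with Benjamini-Hochberg adjustment over all tested probe sets and a threshold of 0.05. For strains, C57BL/6J was subtracted from C3H/HeJBir. The p-values reflect variation among pools, not animals. The labels call the pools of a group independent replicates. The number of arrays limits the precision.

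Deviations from the group means correlated at 0.198 to 0.332 between pools of the same sample number in all 6 pairs of groups. The sample number therefore paired the pools, and a block on it was fitted as an alternative. The other alternatives were pseudocounts at the 5th and 50th percentiles, no filter and a filter at the 60th, quantile and median scaling, trend and robust moderation, a fit of only the compared groups, a block on the day, a threshold of 0.1, averaged probe sets and each pool left out in turn. The fit was tested on simulated data with independent pools, which does not cover the correlation between pools of the same sample number.

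All probe sets of the 6 genes are given. The 3 genes with the highest Pearson correlation to each are named, and up to 3 genes of a pathway list with the largest absolute difference. The members and lists were chosen with earlier results of these data known.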

Additional observations from a re-analysis of the deposited data

How the results depend on the processing

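None of the 6 genes passed the limma test in any of the 7 comparisons under any of the alternatives computed, 20 for the Il10 effect or strain difference within 1 strain or genotype and 19 for the difference of the Il10 effects and the averages. Over 822 recomputed values, 784 kept their sign and 38 changed it. Many of the 784 could not change. The block on the sample number, the filters, the moderation and the threshold leave an estimate as it is, as does leaving out a pool outside the compared groups. The count of kept signs is therefore no measure of stability. With the replicate block on the sample number, 0 of the 6 genes were called, as without it, and the block changed no call of a member. It gave 0 called probe sets for the Il10 effect in C57BL/6J, 1 in C3H/HeJBir, 31 for the strain difference in wild type, 23 in Il10-null and 96 for the average strain difference. Signs turned for Hspa8 in the wild-type strain difference after quantile normalization (-0.031), for Hspd1 in the average strain difference after median scaling (0.038), and with a block on the day for Hspa8 in the C3H/HeJBir Il10 effect (-0.078) and Hsph1 in the average Il10 effect (-0.32). The number of probe sets called for the Il10 effect in C3H/HeJBir was 0, against 1, with the 5th percentile pseudocount, no filter, median scaling, only the compared groups, a block on the day or averaged probe sets. For the Il10 effect in C57BL/6J it was 1, against 0, with the 50th percentile pseudocount, the 60th percentile filter or trend and robust moderation. For the wild-type strain difference it was 53 with the 50th percentile pseudocount, 51 with trend and robust moderation, 49 with only the compared groups and 46 at the threshold of 0.1, against 30. For the Il10-null strain difference it was 45 with the 50th percentile pseudocount, 14 with no filter, 45 with trend and robust moderation, 12 with only the compared groups, 6 with a block on the day, 44 at the threshold of 0.1 and 14 with averaged probe sets, against 22. The causes were not tested. Leaving out each pool in turn, where the lone pool left is assumed to vary like the other groups, gave 0 to 7 probe sets called for the Il10 effect in C3H/HeJBir, 0 to 11 for the average Il10 effect, 2 to 39 for the strain difference in wild type, 4 to 34 in Il10-null and 39 to 106 for the average strain difference. The 7, 11, 34 and 106 were obtained without the sample 2 C3H/HeJBir Il10-null pool. The 2 came without either C57BL/6J wild-type pool, and the 4 without the sample 2 C57BL/6J Il10-null pool. The 39 of the average strain difference came without the sample 2 C57BL/6J or the sample 1 C3H/HeJBir wild-type pool. The log2 differences of the genes whose sign turned without a pool ranged as follows. In the C3H/HeJBir Il10 effect the ranges were -0.17 to 0.28 for Hspa8, -0.35 to 0.21 for Dnajb1, -0.90 to 0.094 for Hsph1 and -0.15 to 0.86 for Hspd1. In the difference of the Il10 effects they were -0.26 to 0.41 for Hspa5 and -0.63 to 0.37 for Hspd1. In the strain difference in wild type they were -0.11 to 0.12 for Hspa8, -0.30 to 0.37 for Hspa5, -0.45 to 0.11 for Dnajb1 and -0.44 to 0.56 for Hspd1, and in Il10-null -0.22 to 0.45 for Hspa5 and -0.27 to 0.12 for Hspd1. In the average Il10 effect they were -0.14 to 0.36 for Hsph1, -0.30 to 0.15 for Hspa1b and -0.021 to 0.26 for Dnajb1, and in the average strain difference -0.26 to 0.24 for Hspd1, -0.091 to 0.25 for Hspa5 and -0.34 to 0.16 for Hsph1. Genes whose sign held still moved over all alternatives: in the average Il10 effect 0.10 to 0.54 for Hspa5, 0.046 to 0.29 for Hspa8 and 0.17 to 0.67 for Hspd1, and in the average strain difference -0.50 to -0.22 for Dnajb1, -0.45 to -0.0045 for Hspa1b and -0.23 to -0.0048 for Hspa8.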

Other observations

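Sec63, a J-domain protein of the endoplasmic reticulum translocon, had the largest difference between the strains among the listed chaperone genes and is named after its values were seen. It read 14.5 and 66.6 in C57BL/6J Il10-null pools, against 135 and 84.6 in C57BL/6J wild-type pools, and 125 and 108 in C3H/HeJBir Il10-null pools, against 14.9 and 57.2 in C3H/HeJBir wild-type pools. The genotypes were apart in both strains, in the opposite order to Hspa1b. The C3H/HeJBir log2 difference minus the C57BL/6J difference was 3.004 ± 0.83 (limma adjusted p = 1.00), and the lowest values came from a sample 1 pool in each strain.

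Btg2, an immediate early gene that restrains cell proliferation, had the smallest p of the 93 listed genes for the Il10 effect in C3H/HeJBir. It read 325 and 359 in C3H/HeJBir Il10-null pools, against 774 and 922 in C3H/HeJBir wild-type pools, and 693 and 748 in C57BL/6J Il10-null pools, against 741 and 906 in C57BL/6J wild-type pools. The C3H/HeJBir Il10-null pools stood below all 6 others, with a log2 difference from C3H/HeJBir wild type of -1.28 ± 0.23 (limma adjusted p = 0.999).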
